A study of Homo sapiens with 6 samples.

Results

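The enzymes that build and sulfate glycosaminoglycan chains were compared between the large physaliferous and the small non-vacuolated cells of the chordoma line MUG-Chor1. The set comprised 39 genes, listed by function and not by their measured values, though with earlier results of these data known. Of these, 38 were measured among the 18404 genes of the array. Members were found by an exact match of the gene symbol in the platform annotation, and where several probe sets carried a symbol the one with the highest mean over all 6 arrays was kept. *NDST2* had no probe set under exactly this symbol and was not analysed here. The 38 genes were 6 enzymes of the linker, 15 of chondroitin and dermatan sulfate, 10 of heparan sulfate, 3 sulfotransferases of keratan sulfate and 4 enzymes of precursor supply.

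MUG-Chor1 grew out of a chordoma of the sacrococcygeal region and holds side by side the vacuolated and the small cells typical of this tumor. Both phenotypes came from the same untreated line, kept in IMDM/RPMI medium with serum, and were picked after trypsinization with a micromanipulator as pools of 20 cells, large pools 2, 3 and 4 and small pools 5, 6 and 7. Each pool was amplified as whole transcriptome cDNA and hybridized to a GeneChip Human Gene 1.0 ST array of its own. All values are log2 expression, and a log2 fold change is the mean of the large minus the mean of the small pools. As nothing says that the pools came from separate cultures, the tests measure only the spread between these 6 pools of 1 cell line. The cells were sorted by eye, so within a pool fewer cells expressing a gene and less of its RNA per cell cannot be told apart.

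Glycosaminoglycans are long sugar chains that hang on the core proteins of proteoglycans and bind water through their negative charge. A short linker, begun with xylose, ties the chain to the protein, and the next sugar decides whether chondroitin sulfate or heparan sulfate is built. Keratan sulfate starts from other glycans. Sulfotransferases then place sulfate groups, all taken from the donor PAPS, and the chains are abundant in cartilage, in the notochord and in the myxoid matrix of chordoma.

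The identity of the material was checked first. All 10 chordoma markers exceeded the expression floor of 6.64, the log2 of a signal of 100, on every array, among them brachyury (*TBXT*) at 10.31 to 10.39 in the large and 10.17 to 10.37 in the small pools. All 8 fibroblast markers had negative log2 fold changes, as did 66.4% of all genes, with a median of -0.16 (all genes -0.11). Their mean log2 level was 6.79 to 6.89 in the large and 7.02 to 7.31 in the small pools. It was highest in small pool 7, where *LUM* measured 8.88. Of these markers 4, *THY1*, *COL1A1*, *COL3A1* and *COL1A2*, exceeded the floor on all arrays. *PDGFRB* and *LUM* did so on some arrays, and *DCN* and *PDGFRA* on none. Of 5 endothelial markers 4 never exceeded the floor. Of 5 immune markers *CD68* and *CD79A* exceeded it on all arrays, *CD14* on 4, *CD3E* on 1 and *PTPRC* on none. *CD68*, a lysosomal protein of macrophages, measured 8.97, 8.67 and 9.003 in the large and 8.71, 8.16 and 7.97 in the small pools. Large pool 3 lay below small pool 5, and the means differed by 0.60 on the log2 scale (adjusted p = 0.33, limma). The rest of the immune list did not share this rise. *CD79A* was lower in every large pool (log2 fold change -0.16), *CD14* was at -0.19, *PTPRC* at -0.04 and *CD3E* at 0.09. The mean log2 level of 10 proliferation genes was 6.80, 6.73 and 8.43 in large pools 2 to 4 and 7.85, 8.13 and 7.50 in small pools 5 to 7, so large pool 4 stood apart from its group. Array medians were 6.64 to 6.68 in the large and 6.73 to 6.76 in the small pools, and pools of a group correlated over probe sets with r of 0.914 to 0.929 (large) and 0.896 to 0.899 (small). The part of fibroblast, immune and proliferation markers in the results on the enzymes was not tested.

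None of the 38 enzymes passed limma's moderated test with Benjamini-Hochberg adjustment over all genes. The same was true of the whole array without a filter, where 0% of 18404 genes were called; the smallest adjusted p was 0.32 among the enzymes and 0.14 among all genes. With the filter on the expression floor and on an interquartile range above 0.5, which retained 2062 genes and *EXT1* alone of the enzymes, 2 genes were called (smallest adjusted p = 0.041, limma), neither of them an enzyme of the set. At an unadjusted p under 0.05, 2 enzymes were higher in large cells, *CSGALNACT1* and *CHSY3*, against 4.33% of all genes. At the same limit 3 enzymes were lower, *CHST13*, *CHPF2* and *CHST14*, against 10.5% of all genes. Pools of the phenotypes did not overlap for 3 enzymes that were higher in every large pool, with a background of 5.48%, and for 7 that were lower in every large pool, with a background of 21.6%. These shares were near the background. The median log2 fold change was -0.05 over the enzymes and -0.11 over all genes, and 22 enzymes (57.9%) lay below 0 compared with 66.4% of all genes.

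Grouped by role, the median log2 fold change was -0.20 for the linker, -0.04 for chondroitin and dermatan sulfate, -0.00017 for heparan sulfate, -0.24 for keratan sulfate and 0.26 for precursor supply. The single enzymes ranged from -0.49 for *CHST13* to 0.69 for *CHSY3*. Thus the precursor enzymes were the role group with all members above 0, and the keratan sulfotransferases the one with all members below 0. Of all genes 66.4% lay below 0. The precursor enzymes were all in the brightest of 5 classes by mean signal, where the median of all genes was 0.08. *CHST1* turned above 0 with arrays centred on their median (0.023) and with the trend with signal level removed (0.015). Of the precursor enzymes *UXS1* (0.07) turned below 0 without large pool 4.

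The promoters of *PAPSS1*, *CHST13* and *NDST1* are shown as examples of enzymes whose pools did not overlap, the first a PAPS synthase that was higher in every large pool, the others sulfotransferases of chondroitin and of heparan sulfate that were lower. Of the 38 enzymes 33 had an entry in the RefSeq promoter table of GRCh38.p14. *PAPSS2* and *CSGALNACT1*, the other enzymes higher in every large pool, had none, nor had *EXT1*, *EXTL3* and *CHST1*. The 250 bases before the start of the gene were searched for motifs on both strands. These were the GC box GGGCGG, the CCAAT box CCAAT, the TATA box TATAAA, the T-box motif GGTGTGA and the SOX motif AACAAT. No motif contains another. Capitals mark the matches, and bases run from 5′ to 3′ on the strand of the gene. *PAPSS1* lies on the minus strand (chr4:107720235-107720484), *CHST13* on the plus strand (chr3:126523905-126524154) and *NDST1* on the plus strand (chr5:150497529-150497778).
PAPSS1: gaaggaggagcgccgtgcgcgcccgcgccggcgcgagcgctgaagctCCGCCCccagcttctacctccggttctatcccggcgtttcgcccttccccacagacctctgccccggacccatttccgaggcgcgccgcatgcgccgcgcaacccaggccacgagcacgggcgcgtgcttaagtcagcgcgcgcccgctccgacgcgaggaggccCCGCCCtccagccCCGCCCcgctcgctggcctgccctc
CHST13: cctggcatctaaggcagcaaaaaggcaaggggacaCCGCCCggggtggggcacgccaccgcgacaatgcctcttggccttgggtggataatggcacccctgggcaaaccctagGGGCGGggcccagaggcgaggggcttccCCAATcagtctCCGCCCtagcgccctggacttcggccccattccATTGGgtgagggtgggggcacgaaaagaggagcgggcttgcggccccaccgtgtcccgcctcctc
NDST1: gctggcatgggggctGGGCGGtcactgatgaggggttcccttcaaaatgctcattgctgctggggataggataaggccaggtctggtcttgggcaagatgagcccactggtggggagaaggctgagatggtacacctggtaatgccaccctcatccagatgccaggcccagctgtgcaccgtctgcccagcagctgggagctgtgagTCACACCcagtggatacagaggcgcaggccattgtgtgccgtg

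The *PAPSS1* promoter, with 75.2% G and C, held 3 GC boxes, at 203, 38 and 25 bases before the start. That of *CHST13* (67.6%) held 3 GC boxes and 2 CCAAT boxes. *NDST1* (60.4%) had 1 GC box and 1 T-box motif, on the opposite strand and 43 bases before the start. Over the set, 29 of 33 promoters (87.9%) held a GC box, compared with 56.3% of the 14230 promoters of array genes. CCAAT boxes were present in 7 enzymes (21.2%, all promoters 34.1%) and TATA boxes in *EXT2* and *UXS1* (6.06%, all promoters 8.86%). The T-box motif was found in *NDST1* alone (3.03%, all promoters 2.50%), and the SOX motif in 0 of 33, while 5.94% of all promoters held it. The median G and C content was 69.2% in the enzymes and 62.4% in all promoters. A match describes letters in this window and not a bound site.

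The 4 enzymes of precursor supply exceeded the floor on every array. PAPS, the donor of every sulfate group, is made by the bifunctional synthases *PAPSS1* and *PAPSS2*. *PAPSS1* (probe set 8102214) measured 10.37, 10.81 and 10.49 in large pools 2 to 4 and 10.35, 10.34 and 10.05 in small pools 5 to 7. *PAPSS2* (probe set 7928944) measured 11.70, 11.51 and 11.54 in the large and 11.40, 11.28 and 11.46 in the small pools. For both synthases every large pool exceeded every small pool, by a margin as narrow as the step from small pool 5 to large pool 2 for *PAPSS1*. The log2 fold changes were 0.31 (SE 0.16, 95% confidence interval -0.07 to 0.69, adjusted p = 0.36, limma) for *PAPSS1* and 0.21 (SE 0.10, interval -0.05 to 0.46, adjusted p = 0.37) for *PAPSS2*.

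The other pair of this group prepares sugar nucleotides. *UGDH* oxidizes UDP-glucose to UDP-glucuronic acid, and *UXS1* converts that into UDP-xylose. *UGDH* measured 8.89, 8.99 and 9.31 in the large and 8.97, 7.72 and 8.997 in the small pools. The low value of small pool 6 set its log2 fold change of 0.50 (interval -0.38 to 1.39, adjusted p = 0.48, limma), which was 0.08 without that pool. *UXS1* had a log2 fold change of 0.07, with overlapping pools between 9.14 and 9.46.

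**Figure D1:**
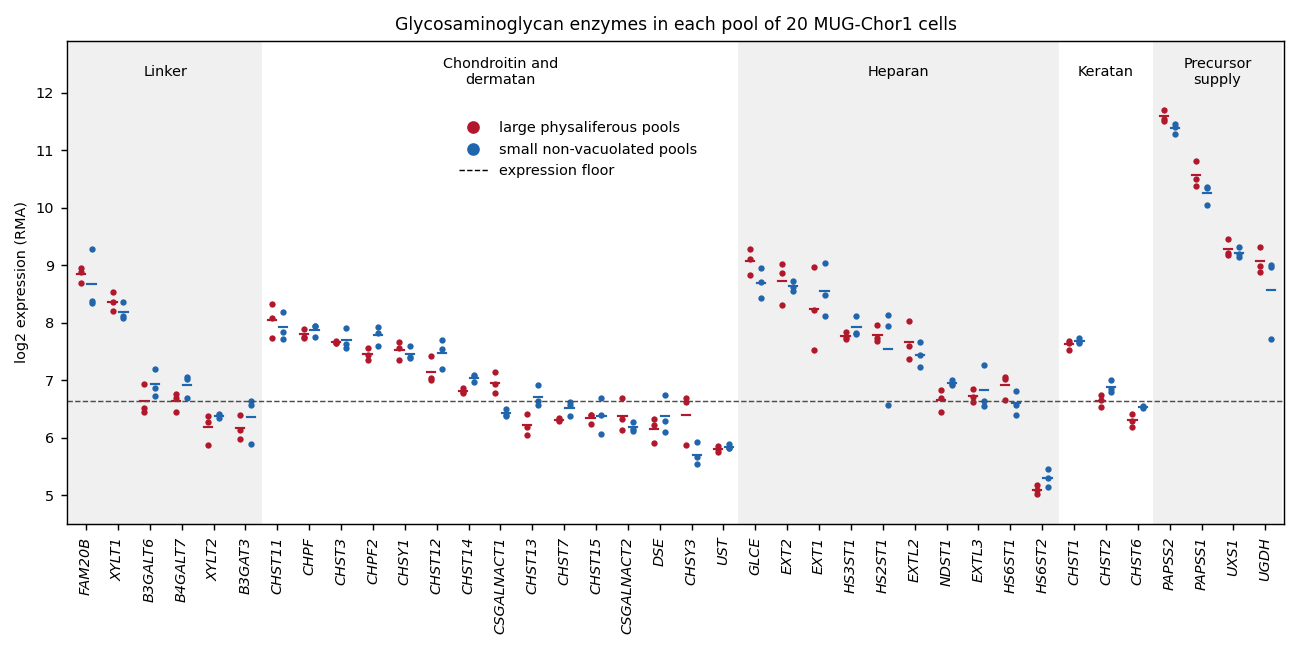
Log2 expression (vertical axis) of all 38 measured enzymes by role, with 1 point per pool, large pools in red and small pools in blue, a bar at each mean and a dashed line at the expression floor of 6.64. *CSGALNACT1*, *PAPSS1* and *PAPSS2* lie higher in every large pool, 7 enzymes lie lower in every large pool, and single low small pools are seen for *HS2ST1* (6.57) and *UGDH* (7.72).

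Chondroitin sulfate enzymes held the extremes of the set in both directions. Of 15 genes, 5 lay above and 10 below 0 (66.7%, all genes 66.4%). The 5 enzymes of the whole set with an unadjusted p under 0.05, 2 higher and 3 lower, were all among them. At this limit 4.33% of all genes were higher and 10.5% lower. *CSGALNACT1*, which adds the first N-acetylgalactosamine to the linker and so commits the chain to chondroitin, measured 6.93, 7.14 and 6.78 in large pools 2 to 4 and 6.40, 6.50 and 6.38 in small pools 5 to 7. All 3 large pools exceeded the floor and none of the small pools did. The mean was 6.95 ± 0.18 (SD, n = 3) in large and 6.43 ± 0.07 (SD, n = 3) in small cells. The log2 fold change was 0.52 (SE 0.12, interval 0.23 to 0.82, adjusted p = 0.32, limma).

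*CHSY3*, a chondroitin synthase that elongates the chain, measured 5.87, 6.69 and 6.62 in the large and 5.54, 5.93 and 5.66 in the small pools. Large pools 3 and 4 were above all small pools, but large pool 2 was below small pool 6, and 1 of 6 arrays exceeded the floor. Its log2 fold change of 0.69 (SE 0.24, interval 0.09 to 1.28, adjusted p = 0.32, limma) was the highest of the set. *CHPF2*, a polymerizing factor that works with the synthases, measured 7.56, 7.35 and 7.44 in the large and 7.59, 7.93 and 7.82 in the small pools. Every large pool was below every small pool, with a log2 fold change of -0.33 (SE 0.13, interval -0.64 to -0.03, adjusted p = 0.33, limma).

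Among the sulfotransferases of these chains the lowest log2 fold change belonged to *CHST13*, which sulfates N-acetylgalactosamine. It measured 6.19, 6.04 and 6.41 in the large and 6.64, 6.57 and 6.92 in the small pools, and small pool 7 alone exceeded the floor. The pools did not overlap, and the log2 fold change was -0.49 (SE 0.15, interval -0.85 to -0.14, adjusted p = 0.32, limma). *CHST14*, the sulfotransferase of dermatan sulfate, measured 6.78, 6.79 and 6.86 in the large and 7.09, 7.08 and 6.97 in the small pools. All arrays exceeded the floor, all large pools lay below all small pools, and the log2 fold change was -0.24 (SE 0.09, interval -0.46 to -0.02, adjusted p = 0.33, limma). *CHST7*, another chondroitin sulfotransferase, was under the floor on every array, at 6.29, 6.35 and 6.31 in the large and 6.38, 6.63 and 6.56 in the small pools. Its pools did not overlap either, with a log2 fold change of -0.21 (interval -0.46 to 0.04, adjusted p = 0.36, limma).

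The remaining 9 chondroitin and dermatan enzymes had overlapping pools and log2 fold changes from -0.32 for *CHST12* to 0.20 for *CSGALNACT2*. Values near 0 were found for *CHSY1* (0.06), which polymerizes the chain, for *CHPF* (-0.08), and for the sulfotransferases *CHST3* (-0.04), *CHST15* (-0.04) and *UST* (-0.04). Their 95% intervals lay between -0.46 and 0.38. *DSE*, the epimerase that turns chondroitin into dermatan sulfate, had a log2 fold change of -0.23 and *CHST11*, a sulfotransferase of N-acetylgalactosamine, 0.13.

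**Figure D2:**
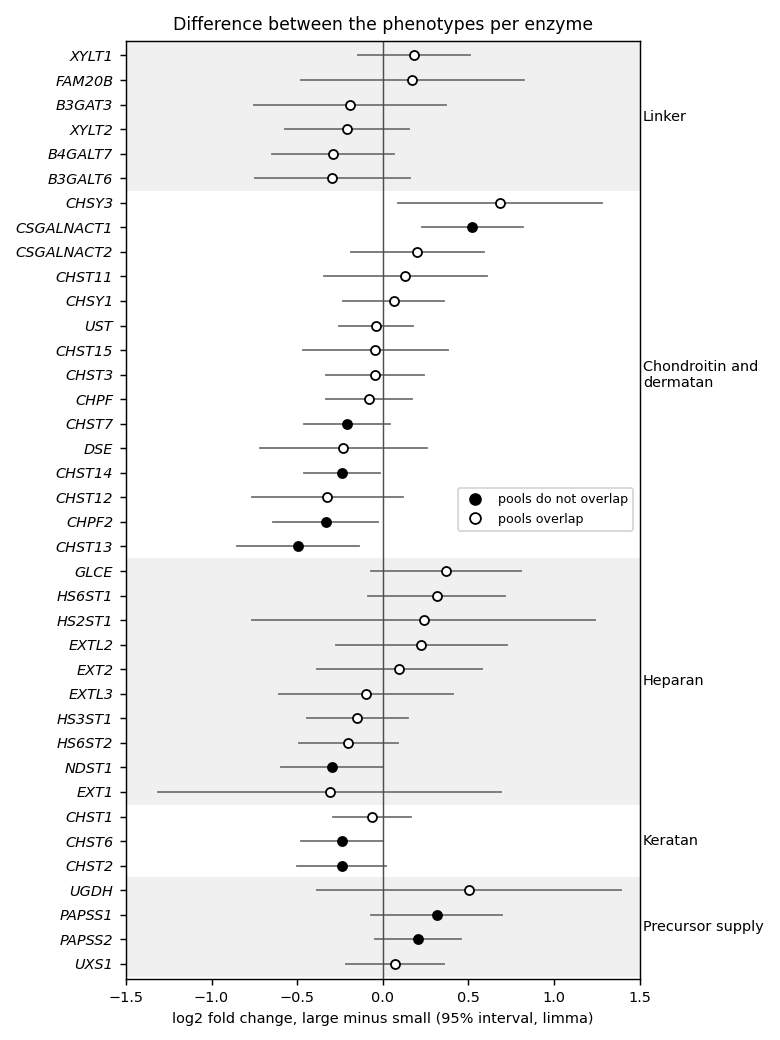
Log2 fold change (large minus small, horizontal axis) of each enzyme with its 95% interval from limma, grouped by role, filled where large and small pools do not overlap. The intervals of *CSGALNACT1* and *CHSY3* lie above 0 and those of *CHST13*, *CHPF2* and *CHST14* below 0, while the others include 0.

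The linker enzymes had overlapping pools throughout. The linker begins with xylose, added by the xylosyltransferases *XYLT1* and *XYLT2*, continues with galactose from *B4GALT7* and *B3GALT6* and ends with glucuronic acid from *B3GAT3*, and *FAM20B* phosphorylates the xylose. *B4GALT7* measured 6.77, 6.45 and 6.70 in the large and 7.02, 7.06 and 6.70 in the small pools, where large pool 2 exceeded small pool 7. Its log2 fold change was -0.29 (SE 0.15, interval -0.65 to 0.07, adjusted p = 0.37, limma). *B3GALT6* measured 6.45, 6.52 and 6.94 in the large and 6.73, 6.86 and 7.20 in the small pools, with a log2 fold change of -0.29 (interval -0.75 to 0.16, adjusted p = 0.43). Large pool 4 lay within the range of the small pools. The log2 fold changes of *B3GAT3* and *FAM20B* were -0.19 and 0.17.

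In heparan sulfate synthesis 5 enzymes lay above and 5 below 0, and 1 of 10 had pools that did not overlap. That one was *NDST1*, which removes acetyl groups and adds N-sulfate as the first modification of the chain. It measured 6.46, 6.69 and 6.83 in the large and 7.002, 6.92 and 6.94 in the small pools. Each large pool was lower than each small pool, and the log2 fold change was -0.30 (SE 0.12, interval -0.59 to 0.0010, adjusted p = 0.34, limma). *GLCE*, the epimerase that forms iduronic acid, measured 9.11, 9.27 and 8.82 in the large and 8.71, 8.95 and 8.44 in the small pools. Large pool 4 lay within the range of the small pools, and the log2 fold change was 0.37 (interval -0.07 to 0.81, adjusted p = 0.36, limma).

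Pools of a group differed widely for *EXT1*, a polymerase of heparan sulfate. It measured 8.97, 8.22 and 7.52 in the large and 9.04, 8.12 and 8.48 in the small pools, with a log2 fold change of -0.31 (interval -1.31 to 0.69). Large pools 2 and 3 lay within the range of the small pools and large pool 4 below it. Its partner *EXT2* had a log2 fold change of 0.10 and a smaller SD within groups (0.27). *HS2ST1*, the sulfotransferase of iduronic acid, measured 7.96, 7.73 and 7.68 in the large and 8.13, 6.57 and 7.95 in the small pools. Its log2 fold change of 0.24 (interval -0.76 to 1.24) rested on small pool 6 and was -0.25 without it. The SD within groups was above 0.5 for *EXT1* (0.61), *HS2ST1* (0.61) and *UGDH* (0.54), which are 7.89% of the enzymes, compared with 11.6% of all genes.

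The sulfotransferase *HS6ST1* was the only enzyme with more than 1 probe set. The probe set kept (7898677) measured 6.66, 7.06 and 7.02 in the large and 6.57, 6.82 and 6.40 in the small pools, a log2 fold change of 0.31 (adjusted p = 0.38, limma). Its other probe set (8055130) measured 6.06, 5.98 and 6.01 in the large and 6.40, 6.14 and 6.30 in the small pools, a difference of -0.26 in the opposite direction and without overlap. The mean of both gave 0.03. Of the other members, *EXTL2* was at 0.22, *EXTL3* at -0.10, *HS3ST1* at -0.15 and *HS6ST2*, under the floor on all arrays, at -0.20.

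Keratan sulfate was represented by the 3 sulfotransferases *CHST1*, *CHST2* and *CHST6*, of which the first sulfates galactose and the other pair N-acetylglucosamine. *CHST6* measured 6.30, 6.19 and 6.42 in the large and 6.54, 6.56 and 6.52 in the small pools, under the floor on every array. *CHST2* measured 6.66, 6.54 and 6.74 in the large and 6.999, 6.79 and 6.86 in the small pools. For both, all large pools were lower than all small pools. The log2 fold change was -0.24 for *CHST6* (interval -0.48 to 0.0041, adjusted p = 0.34, limma) and -0.24 for *CHST2* (interval -0.50 to 0.02, adjusted p = 0.34, limma). *CHST1* was at -0.06 with overlapping pools.

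Direction went with signal level on these arrays, among the enzymes as among all genes. When all genes were split into 5 classes of equal size by mean signal, the median log2 fold change was -0.09, -0.15, -0.17, -0.13 and 0.08 from the dimmest to the brightest class. The enzymes in these classes (2, 9, 8, 9 and 10 genes) had medians of -0.12, -0.21, -0.24, -0.06 and 0.18. Genes lower in every large pool made up 32.9% of the third class and 4.65% of the brightest one, and genes higher in every large pool 3.56% and 12.7%. *PAPSS1* and *PAPSS2* were in the brightest class and *CSGALNACT1* in the third, and the 7 enzymes lower in every large pool were in the second to the fourth. With each array centred on its median, 3 enzymes were lower and 4 higher in every large pool, beside 10.7% and 8.65% of all genes. After the trend with signal level had been removed, 1 enzyme was lower and 3 were higher, beside 7.73% and 8.52% of all genes.

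**Figure D3:**
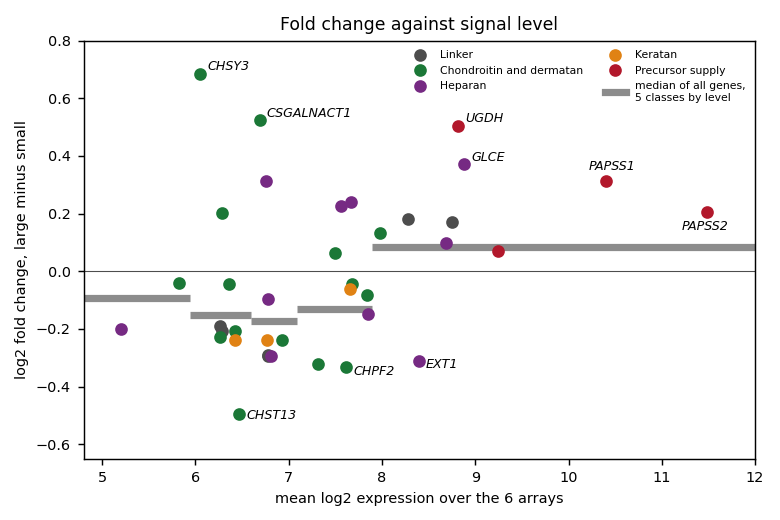
Log2 fold change (large minus small) of each enzyme against its mean log2 level over 6 arrays, coloured by role, with the median of all genes in 5 level classes drawn as grey steps. The steps run from -0.09 over -0.17 to 0.08, and the precursor enzymes lie at high levels above 0.

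For 8 pairs of paralogs the change of one enzyme was set against that of its relative in the same pool, with a two-sided exact permutation test whose smallest possible p is 0.1. The log2 difference *XYLT1* minus *XYLT2* was 2.09 to 2.32 in the large and 1.66 to 2.01 in the small pools, so that the pools did not overlap and its mean was higher by 0.39 in large cells (exact p = 0.1, adjusted over the 8 pairs p = 0.32). *XYLT1* measured 8.37, 8.20 and 8.54 in the large and 8.12, 8.08 and 8.36 in the small pools. *XYLT2* measured 6.28, 5.88 and 6.38 in the large and 6.40, 6.41 and 6.35 in the small pools, under the floor on all arrays. The log2 fold changes of the pair had opposite signs, 0.18 for *XYLT1* (adjusted p = 0.48, limma) and -0.21 for *XYLT2* (adjusted p = 0.47, limma), with overlapping pools for each alone. After the trend with signal level had been removed they were 0.18 and -0.07. *XYLT1* was in the brightest and *XYLT2* in the second class by level, where the medians of all genes were 0.08 and -0.15. The part of signal level in the difference of this pair was not tested. *HS6ST1* minus *HS6ST2* also did not overlap, at 1.57 to 2.04 in the large and 0.95 to 1.51 in the small pools (exact p = 0.1, adjusted p = 0.32), but this pair depends on the probe set chosen for *HS6ST1*, and *HS6ST2* was likewise under the floor on all arrays. The other 6 pairs overlapped. The shift of the difference was 0.11 for *PAPSS1* minus *PAPSS2*, 0.32 for *CSGALNACT1* minus *CSGALNACT2* and -0.62 for *CHSY1* minus *CHSY3*. It was 0.25 for *CHPF* minus *CHPF2*, 0.46 for *CHST11* minus *CHST12* and -0.41 for *EXT1* minus *EXT2*.

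Around the 38 enzymes, 67 of 76 further genes of the pathway were measured, of which 11 reached an unadjusted p under 0.05, each lower in large cells, with 0 called by limma after adjustment. The background at this limit was 10.5% of all genes lower and 4.33% higher, and it applies to the counts of the lists that follow. Their median log2 fold change was -0.13. Among 20 other chain enzymes, 6 were lower, of which *SULF2*, a sulfatase that trims heparan sulfate outside the cell, measured 6.32, 6.56 and 6.41 in the large and 6.80, 6.77 and 6.80 in the small pools. Its pools did not overlap, at a log2 fold change of -0.36, and only its small pools exceeded the floor. Next came *HS3ST6* (-0.41), *HS3ST2* (-0.38) and *NDST3* (-0.34). *HS3ST6* exceeded the floor in small pool 7 alone, and the last pair was under it on all arrays. All 4 had an adjusted p of 0.32 in limma.

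For supply and transport, 11 of 14 genes were measured and none was below a p of 0.05. The smallest p belonged to the sulfate transporter *SLC26A2*, with a log2 fold change of -0.29 and overlapping pools (adjusted p = 0.36, limma). *UGP2*, which makes UDP-glucose, was higher in every large pool, at 0.29. Of 5 hyaluronan genes measured, *CEMIP* was lower (-0.38), under the floor on every array. Of 12 degradation enzymes *HPSE*, the heparanase, and *NAGLU*, a lysosomal glucosaminidase, were lower (-0.40 and -0.30), whereas *HEXA*, a lysosomal hexosaminidase subunit, was higher in every large pool (0.62, adjusted p = 0.35, limma). *HEXA* measured 8.97, 9.19 and 8.85 in the large and 8.80, 8.63 and 7.72 in the small pools, so its difference leaned on the low value of small pool 7.

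Core proteins carry the chains, and 19 of 20 were measured. *AGRN*, a heparan sulfate proteoglycan, measured 6.86, 6.46 and 6.88 in the large and 7.15, 7.08 and 7.20 in the small pools, without overlap and with a log2 fold change of -0.41. *BGN*, a small chondroitin sulfate proteoglycan, was at -0.35. *LUM*, a keratan sulfate proteoglycan that is also on the list of fibroblast markers, had the lowest log2 fold change (-1.11, adjusted p = 0.40, limma), with overlapping pools at 6.74, 5.91 and 6.40 in the large and 7.22, 6.30 and 8.88 in the small pools. *CD44* was higher in every large pool, at 8.96, 9.21 and 8.98 in the large and 8.85, 8.75 and 8.84 in the small pools. Its log2 fold change was 0.23 (adjusted p = 0.35, limma). For *ACAN* the pools overlapped between 9.16 and 9.62, with a log2 fold change of 0.016. Of the 19 core proteins 5 lay above and 14 below 0 (73.7%, all genes 66.4%). The median over the core proteins was -0.11, compared with -0.11 over all genes.

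**Figure D4:**
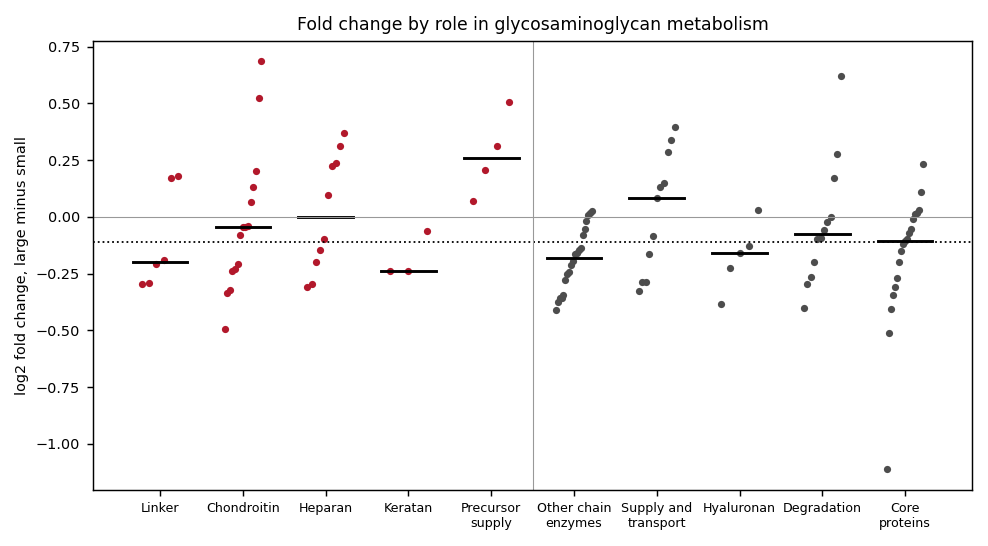
Log2 fold change (large minus small, vertical axis) by role, with 1 point per gene, the 38 enzymes in red and the other pathway genes in grey, a bar at each group's median and a dotted line at the median of all genes (-0.11). All 4 precursor enzymes lie above 0 and all 3 keratan sulfotransferases below 0, and the lowest grey point is *LUM* at -1.11.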

How the data were processed

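Gene expression was measured in 3 pools of large and 3 pools of small MUG-Chor1 cells, with groups taken from the sample titles. The methods of the study describe pools picked in quadruplicate for each phenotype. The series holds arrays of 3 per phenotype, and the sources used here do not say why. The authors deposited log2 expression per probe set, 1 column per array, after robust multi-array averaging (methods: affy package in R, the submitters' processing notes: Affymetrix Expression Console), with a chip definition not given in the sources used here. Such values compress differences at low signal. Precision is limited by the number of arrays, and 0 columns were left unused.

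Of 32321 probe sets 19158 carried 1 symbol, 1388 several and 11775 none in the platform annotation, and those with 1 symbol gave 18404 genes, each by its probe set with the highest mean. Large minus small was tested with limma 3.58.1 in R 4.3.3 on all genes with no covariate and Benjamini-Hochberg adjustment at 0.05, and the procedure was tested on simulated data. The methods of the study filter genes first, which is an alternative here (a signal above 100 on at least 2 of 6 arrays, with or without an interquartile range above 0.5), as are the normalization, the variance model, the probe set rule and leaving out each pool. Python 3.11.15 with pandas 2.3.3 and matplotlib 3.10.9 served for promoters and figures.

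The enzymes, the other lists and the motifs were chosen with earlier results of these data known. Values in every pool are given for enzymes with pools that do not overlap, with an unadjusted p under 0.05 and for at least 2 per role by smallest p, and for further ones where 1 pool or the probe set decided the value or a paralog pair turned on them (these chosen after their values were seen). Of the other lists up to 4 genes with the smallest p under 0.05, or the 1 with the smallest p, are named. *UGP2*, *HEXA*, *LUM*, *CD44* and *ACAN* were added after their values were seen.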

Additional observations from a re-analysis of the deposited data

How the results depend on the processing

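No enzyme was called after adjustment in any of the 15 alternatives, and 500 of 522 alternative values kept their direction. The removal of the trend with signal level was chosen after seeing the data. No paired analysis was possible because the replicate numbers are not shared between the groups (2 to 4 and 5 to 7).

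The 2 enzymes higher at an unadjusted p under 0.05 became 1 with the expression floor, 0 with the floor and an interquartile range above 0.5, and 5 with arrays centred (all genes 5.65%, 11.1% and 6.56%). The 3 lower ones became 0, 1 and 0 with floor and interquartile range, centring and the trend removed (all genes 1.65%, 3.90% and 2.53%). Enzymes without overlap numbered 0 (higher) and 0 (lower) with floor and interquartile range, which left *EXT1* alone, and the 7 lower ones became 4 with the floor, 3 with centring and 1 with the trend removed (all genes 21.3%, 10.7% and 7.73%). The median over all genes was -0.11 as deposited, -0.07 after quantile normalization, -0.03 with centring and -0.0046 with the trend removed. The median over the enzymes was 0.064 with the floor and -0.31 with floor and interquartile range, as for heparan sulfate (-0.31). For the linker it was -0.059 with the floor and -0.057 with the trend removed, and for keratan sulfate -0.087 with the trend removed. Paralog pairs without overlap numbered 1 with quantile normalization, 1 with the mean of the probe sets and 1 with the trend removed. Of the other pathway genes, 2 were higher with centring, and the 11 lower ones became 6 with the floor, 0 with floor and interquartile range, 6 with quantile normalization, 4 with centring and 0 with the trend removed.

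Leaving out 1 pool at a time gave 1 to 3 enzymes higher (1 without small pool 7) and 1 to 5 lower (1 without large pool 3 or small pool 6, 5 without small pool 7) at an unadjusted p under 0.05, beside 3.72% to 4.69% and 5.55% to 8.64% of all genes. It gave 4 to 6 higher (6 without small pool 6, 5 without large pool 2, 3 or 4 or small pool 7) and 8 to 12 lower (11 without large pool 2 or 4, 12 without small pool 7) without overlap, beside 8.06% to 9.71% and 25.7% to 30.5% of all genes, since fewer pools overlap less. Medians ranged from -0.077 to -0.025 (without small pool 5) over the enzymes, from -0.23 to -0.12 (without large pool 3; -0.13 without small pool 5) for the linker, and from -0.078 (without small pool 6; -0.070 without large pool 2) to -0.041 for chondroitin. They ranged from -0.12 (without small pool 6) to 0.14 (without small pool 5) for heparan, from -0.28 to -0.18 for keratan and from 0.14 (without small pool 6) to 0.29 for the precursors. Paralog pairs ranged from 2 to 5 (5 without large pool 2, 4 without small pool 6), and other pathway genes from 0 to 1 higher (1 without small pool 5) and from 3 to 9 lower (3 without large pool 3 or small pool 5, 5 without small pool 7, 7 without large pool 2 or small pool 6).

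The 22 values that changed sign belonged to 12 enzymes, all with overlapping pools. With centring, *CHPF* was at 0.0022, *CHST3* at 0.040, *CHST15* at 0.041, *UST* at 0.043 and *CHST1* at 0.023. With the trend removed, *CHST3* was at 0.029, *CHST15* at 0.10, *UST* at 0.082, *EXTL3* at 0.054 and *CHST1* at 0.015. After quantile normalization *CHST15* was at 0.037 and *UST* at 0.0022. Leaving out 1 pool at a time turned 9 of them. The sign turned without large pool 4 for *CHSY1* (-0.0038 to 0.15), *CHST11* (-0.0095 to 0.29), *EXT1* (-0.68 to 0.048) and *UXS1* (-0.018 to 0.13). It turned without small pool 5 for *EXTL3* (-0.23 to 0.13) and, with 0.11 there and 0.01 without large pool 4, for *CHST15* (-0.20 to 0.11). It turned without small pool 7 for *CHST3* (-0.11 to 0.057), without large pool 2 for *EXT2* (-0.048 to 0.31) and without small pool 6 for *HS2ST1* (-0.25 to 0.53). The cause was not tested in any of these.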
